A study of Populus ussuriensis with 20 samples.

Results

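The comparison of PuHox52-overexpressing and wild-type poplar stem bases at 12 h after cutting rested on 4 of the 20 libraries of the series, chosen by their labels alone. They were 2 libraries labelled PuHox52-OE (OE) and 2 labelled WT, all from Populus ussuriensis. In the OE plants the 35S promoter drives PuHox52. It is active in most plant tissues, so the transgene was not limited to the cells that form roots. In both groups the sample was the lowest 0.5 cm of in vitro stem cuttings kept on diluted Murashige and Skoog medium with sucrose, and each library pooled 40 cuttings. No group of uncut stems is among the libraries. Nothing says whether replicate pools came from separate lines, so p-values measure the spread between pools. In the main test by gene that spread was estimated over all 20 libraries of the series. The plants are given as 2 weeks old in the series text and as 4 weeks old in the growth protocol. How many transgenic lines were used is not given in the sources used here. The other 16 libraries cover the same genotypes at 6, 24, 48 and 96 h and serve here as measurements that share no library with the 12 h comparison.

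Adventitious roots are roots that arise from stems, and in cuttings they start at the wounded base, where auxin moving down the stem accumulates and vascular-associated cells resume division. PuHox52 belongs to the homeodomain-leucine zipper family, plant transcription factors that bind DNA as dimers held together by the zipper and control growth, development and stress responses. A constitutive promoter in front of such a factor can alter its direct targets and, through them, many other transcripts. The deposited tables give a gene model ID and a position for each row but no product, so neither the PuHox52 transcript itself nor markers of stem tissues could be read out to check the labels. Genes are therefore described by size of the difference, level, direction, length and position.

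The 4 libraries held 23770233 and 27472303 counts in WT and 25193251 and 18943544 in OE. Of 39538 gene models, 26391 passed the filter on low counts and were tested. Levels are in CPM, counts scaled to a common library size, and differences are OE minus WT on the log2 scale, where 1 is a 2-fold difference. Neither replicate pair was a copy of 1 library (chi-square per degree of freedom 16.5 in WT and 14.2 in OE), and each library was counted as its own sample.

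At 12 h most transcripts differed little between the genotypes. The quartiles of the log2 difference of group means were -0.155 and 0.147, and its 5% and 95% quantiles were -0.569 and 0.587. The median size of a difference was 0.151. For 723 genes, 2.74% of those tested, the group means were more than 2-fold apart, but the same was true of 857 genes between the WT replicates and of 1047 between the OE replicates. Those last counts compare single libraries and not means of 2, which makes them larger by construction.

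The distances between single libraries show how close the genotypes stood. Over the 21318 genes with a mean level of at least 1 log2 CPM, the standard deviation (SD) across genes of the log2 difference was 0.302 between the WT replicates and 0.321 between the OE replicates. OE replicate 1 differed from WT replicate 1 by an SD of 0.376 and from WT replicate 2 by 0.319. OE replicate 2 differed from them by 0.433 and 0.314. WT replicate 2 was thus about as near to each OE library as the OE libraries were to each other, and WT replicate 1 was farther from both. The number of calls, their sign at 24 h and their share rising in WT are given below with and without these libraries. Other descriptions of the called genes are for the list from all 4 libraries. Replicate pairs of the other 8 groups had SDs of 0.26 to 0.384 on the same genes, a range that holds both 12 h pairs. The difference of group means had an SD of 0.29 at 12 h, against 0.316 at 6 h, 0.305 at 24 h, 0.2 at 48 h and 0.318 at 96 h.

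Calls are genes whose adjusted p fell under 0.05 in edgeR's quasi-likelihood test, fitted over all 20 libraries, with the Benjamini-Hochberg method over the 26391 genes. At 12 h, 54 genes were called higher in OE (0.205% of those tested) and 51 lower (0.193%), together 105 (0.398%). Before adjustment 3094 genes (11.7%) had a p under 0.05. The last gene called had an adjusted p of 0.0497, and the next gene 0.0507. Called differences were mostly of moderate size, with a median of 1.11 for the higher genes and 1.06 for the lower ones. Of the higher genes 29 had a fitted change of at least 2-fold, as did 2.0% of all genes tested in that direction, and of the lower genes 28, against 2.24%. In each direction 5 reached 4-fold. The smallest called sizes were 0.436 and 0.473. All 105 had non-overlapping groups, as did 19.5% of all genes tested in the higher direction and 19.1% in the lower.

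The number of calls depended on single libraries. It was 13 without WT replicate 1 (4 higher and 9 lower), 398 without WT replicate 2 (246 and 152), 37 without OE replicate 1 (19 and 18) and 31 without OE replicate 2 (19 and 12). Of these, 11, 91, 26 and 24 genes were among the 105. It was 175 without either OE library of 6 h, which enters through the shared estimate of the spread and the filter on low counts. With the 4 libraries of 12 h alone, edgeR called 1 gene, a lower one, and left 2270 genes with a p under 0.05 before adjustment. DESeq2 called 389 genes, all 105 among them.

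The largest group of calls lay at middle levels, as did most genes. Of the 105, 36 had a mean of 2 to 4 log2 CPM (0.524% of the 6864 genes there) and 39 a mean of 4 to 6 (0.458% of 8518). Below 0 log2 CPM 4 of 3155 genes were called (0.127%), although 10.7% of these genes had group means more than 2-fold apart. There the WT replicates differed by an SD of 0.778 and the OE replicates by 0.843, against 0.243 and 0.252 at 4 to 6 log2 CPM. The median size of a called difference was 2.85 below 0 log2 CPM, 0.78 at 4 to 6, 0.923 at 6 to 8 (11 genes) and 2.14 at 8 or more (3 genes).

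**Figure D1:**
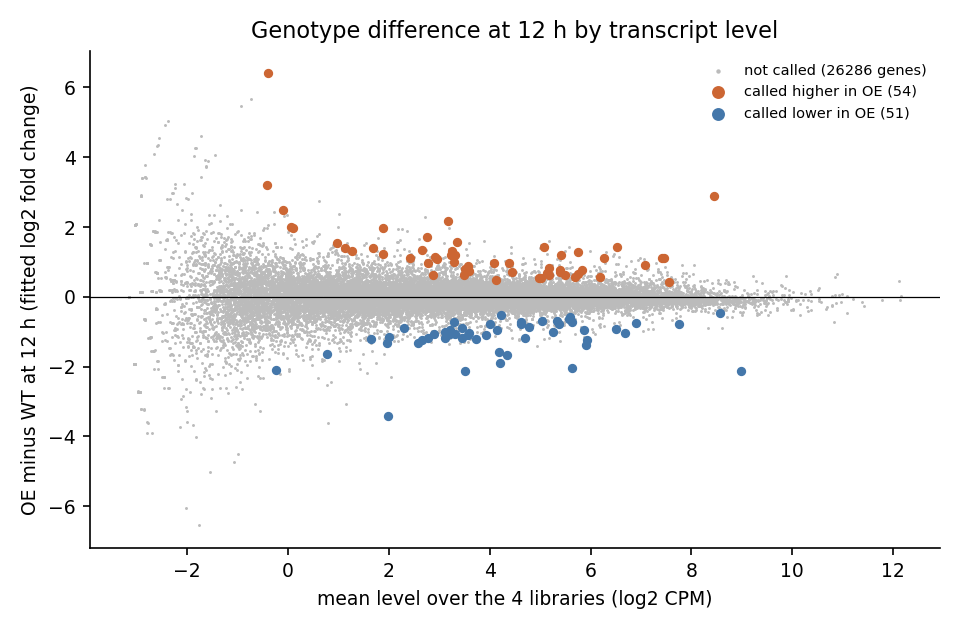
Fitted log2 fold change of OE against WT at 12 h (vertical axis) by mean level over the 4 libraries in log2 CPM (horizontal axis), with 1 point a gene. The 54 genes called higher and the 51 called lower lie at the edge of a cloud that widens towards low levels. The gene at 8.45 log2 CPM with a difference of 2.89 is the only 1 called higher at 8 log2 CPM or more, where 2 were called lower.

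The called genes differed widely in how much RNA they account for. Summed over the 54 higher genes, WT libraries held 1225 and 1634 CPM and OE libraries 3399 and 3421. The groups did not overlap, which the choice of these genes fixes. A single gene, Potri.014G103000.v3.0, made up 42% of the summed increase, and the next one 7.27%. Summed over the 51 lower genes, WT held 4384 and 2932 CPM and OE 1694 and 1557. Here 1 gene on chromosome 13, singled out after its values were seen, made up 43.4% of the summed decrease, and its WT libraries stood 3-fold apart, at 1711 CPM in replicate 1 and 570 in replicate 2, with OE at 290 and 228.

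The gene with the smallest p was Potri.014G103000.v3.0 (chromosome 14, 8085842 to 8087890, minus strand), also the most abundant of the called higher genes. WT libraries had 2423 and 4222 counts, which is 104 and 155 CPM, and OE libraries had 21315 and 20583 counts, which is 862 and 1062 CPM. Both OE libraries were far above both WT libraries. The mean was 962 ± 142 CPM (SD, n = 2) in OE and 129 ± 35.6 in WT, a log2 fold change of 2.89 (standard error, SE, 0.261) with an adjusted p of 0.000114 by edgeR. The single tested gene within 5 kb of it differed by 0.145. Potri.014G103000.v3.0 was also called higher at 6, 24 and 96 h (log2 fold changes 1.77, 2.05 and 2.75), but not at 48 h (1.16). Its difference at 12 h was not called as departing from the mean of the other times (0.962, adjusted p 0.155 by edgeR).

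The next gene called higher by p was Potri.010G078300.v3.0 (chromosome 10, 10326355 to 10328947, minus strand). It stood at 5.51 and 3.11 CPM in WT (128 and 85 counts) and at 17.5 and 20.8 CPM in OE (433 and 404 counts). The groups were well apart, with a log2 fold change of 2.16 (SE 0.268, adjusted p 0.00297 by edgeR). In WT this gene was at 12.7 and 8.51 CPM at 6 h and at 12.8 and 8.67 CPM at 24 h, and in OE it was at 14.6 and 11.7 CPM and at 20.3 and 20.3 CPM. The WT values of 12 h were thus the low ones of its series, while both OE libraries of 12 h lay above every WT library of 6 and 24 h.

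The lower gene with the smallest p was Potri.015G003100.v3.0 (chromosome 15, 236720 to 239777, minus strand). WT libraries stood at 20.9 and 27.1 CPM and OE libraries at 6.51 and 4.28 CPM, without overlap. The log2 fold change was -2.14 (SE 0.196, adjusted p 0.000114 by edgeR). OE stayed between 2.63 and 6.51 CPM in the 8 libraries from 6 to 48 h and reached 11.5 in both at 96 h, whereas WT ranged from 12.7 to 28.4 over the 5 times.

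Potri.001G459700.v3.0 (chromosome 1, 49360630 to 49366179, minus strand) was the next lower gene. It had 35.7 and 35.1 CPM in WT and 10.6 and 8.36 CPM in OE, and the WT replicates were almost equal. The log2 fold change was -1.89 (SE 0.21, adjusted p 0.00106 by edgeR). Potri.015G003100.v3.0 and Potri.001G459700.v3.0 each overlap 1 model on the opposite strand, and because the strand setting of the counting is not given, reads of the pair cannot be told apart. With the 4 libraries of 12 h alone the calls of all 4 named genes were lost (adjusted p 0.0699, 0.151, 0.151 and 0.0614 in the order given), with log2 fold changes of 2.90, 2.17, -2.14 and -1.89. They were kept in the other 25 alternatives.

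**Figure D2:**
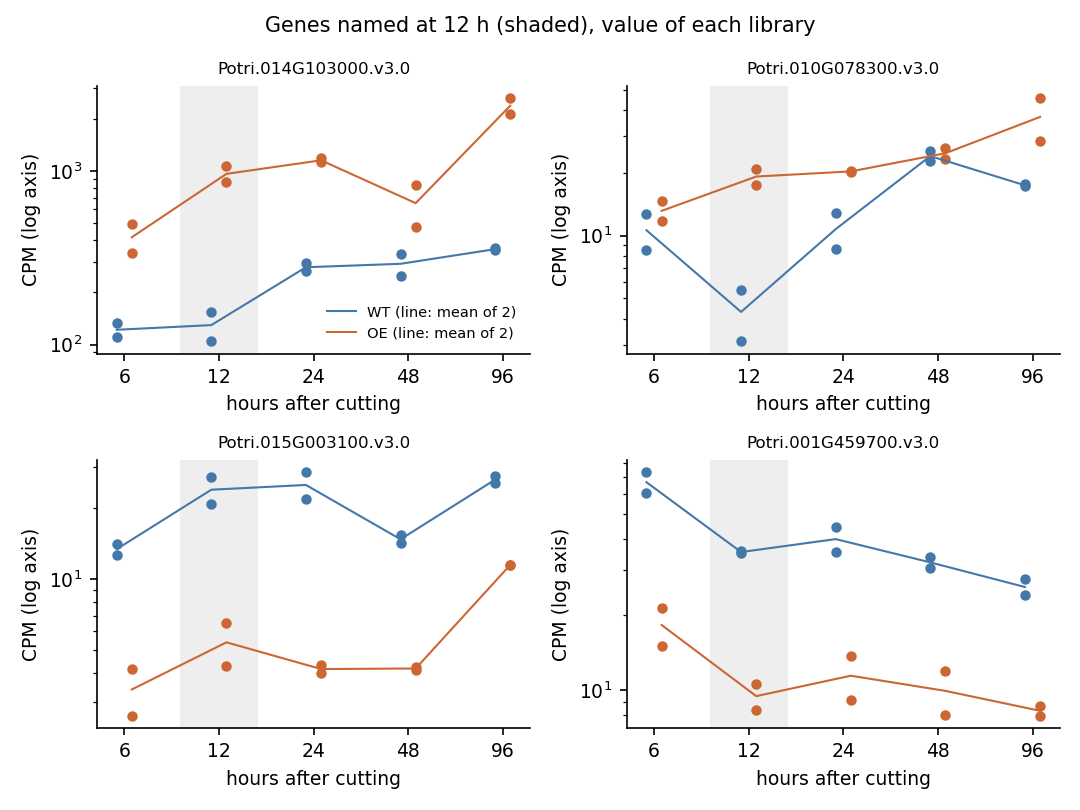
CPM on a log axis (vertical) by hours after cutting (horizontal) for the genes named at 12 h, with 1 point a library and lines through the mean of 2. At 12 h (shaded) OE is at 862 and 1062 CPM for Potri.014G103000.v3.0 against 104 and 155 in WT, and for Potri.015G003100.v3.0 and Potri.001G459700.v3.0 OE is below WT at all 5 times.

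Per unit of length, the order of the 4 named genes was different between the genotypes, which their choice by p in each direction favours. In the authors' deposited FPKM values, Potri.014G103000.v3.0 was the highest of the 4 genes in every library, at 50.3 and 75.3 in WT and 418 and 516 in OE. In WT it was followed by Potri.015G003100.v3.0 (16.6 and 22.4) and Potri.001G459700.v3.0 (19.9 and 19.8), which overlapped each other, and then by Potri.010G078300.v3.0 (3.9 and 2.23). In OE Potri.010G078300.v3.0 was the next highest (12.5 and 15.1), above Potri.001G459700.v3.0 (5.96 and 4.71) and Potri.015G003100.v3.0 (5.31 and 3.29), which overlapped again. Over the called lists, the median FPKM in WT was 4.98 for the higher genes and 19.1 for the lower ones, with 8.25 over all genes tested, and in OE the medians were 9.7, 7.24 and 8.33. The direction in which the median of each called list moved follows from the choice of its genes.

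Few gene models had counts in 1 genotype alone. Of the 9278 gene models with 0 counts in both WT libraries, 134 had at least 1 count in each OE library, 1 had at least 5, and 0 had at least 10. Of the 9468 models with 0 counts in both OE libraries, 218, 3 and 1 did so in WT, the last with 33 counts over both WT libraries. Most of these models did not pass the filter on low counts and could not be called. Of the 134 and 218 with at least 1 count in each library of the other genotype, 9 and 11 were tested and 0 were called by edgeR. OE replicate 2 had the smallest total of the 4 libraries (18943544 counts), and the part of depth in these numbers was not tested. A count of 0 allows up to 3 counts, which is 0.126 and 0.109 CPM in the WT libraries and 0.119 and 0.158 CPM in the OE libraries. These floors cover counting error only.

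Part of the lower calls lay side by side on chromosome 1. Runs of neighbouring genes were defined from the other 4 times, so the 12 h libraries did not choose them. The choice favours large values at those 4 times, so sizes there and at 12 h are not on equal terms. A run was a stretch covered by windows of 12 consecutive tested genes whose mean differences over those times all had the same sign, with a median size of at least 0.15 in each window. This gave 8 runs with 248 genes. The strongest lay on chromosome 1 from 49213774 to 49693286 and held 27 tested genes. At the other times their median difference was -0.808, and at 12 h it was -0.945 (quartiles -1.18 and -0.723).

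In this chromosome 1 segment all 27 genes had a lower mean in OE at 12 h, and in 26 of them the groups did not overlap. The corresponding share over all genes tested was 19.1%. By library, the median difference from the WT mean was -0.935 and -0.981 in OE replicates 1 and 2 and -0.0251 and 0.0251 in WT replicates 1 and 2. The WT values mirror each other, because each is taken from the mean of both WT libraries. Their median over genes therefore does not measure how far the replicates lie apart. For single genes of the segment the WT libraries lay up to 0.524 on either side of their mean. Summed over the 27 genes, WT libraries held 543 and 538 CPM and OE libraries 280 and 282, a ratio of 0.519. Single genes ranged from -3.26 to -0.245, and 13 had a fitted value at least 2-fold lower, as did 2.24% of all genes tested. The 12 tested genes before and after the segment had medians of -0.102 and -0.131. The test called 10 of the 27 lower at 12 h, against 0.193% of all genes tested. Potri.001G459700.v3.0 was among them, and they made up 19.6% of the lower calls of the genome. The median without 1 library of 12 h ranged from -0.981 to -0.861.

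**Figure D3:**
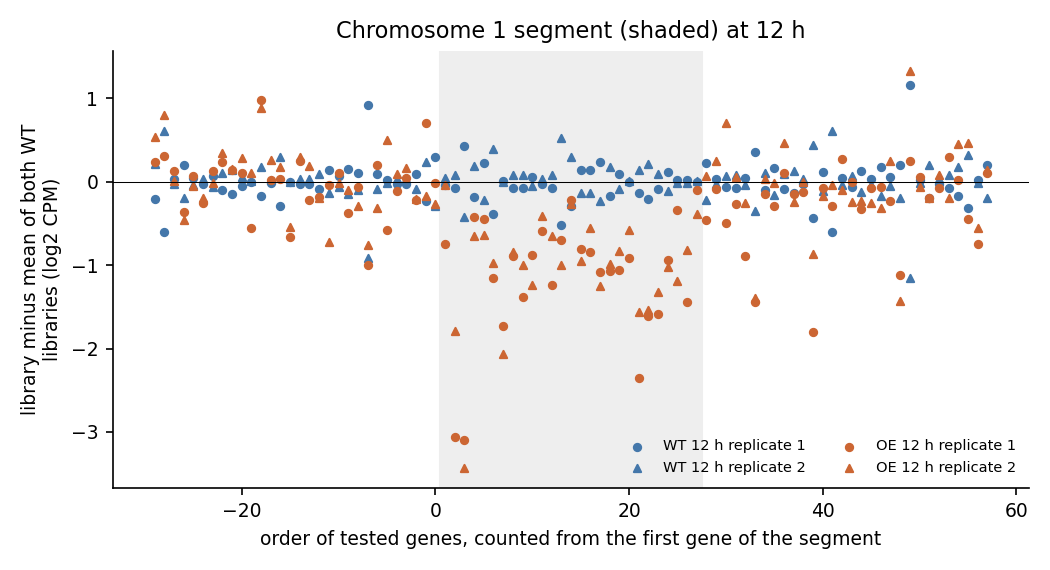
Log2 CPM of each 12 h library minus the mean of both WT libraries (vertical axis) for tested genes in their order on chromosome 1, counted from the first gene of the segment (horizontal axis). In the shaded segment of 27 genes the OE points of both replicates lie below the WT points for 26 genes, with OE medians of -0.935 and -0.981, and outside it they mix.

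On chromosome 13, 4 of the runs lay between 18297 and 2154762 and held 183 tested genes, which differed by a median of 0.244 at the other times. At 12 h the median was 0.124, and 129 genes had a higher mean in OE and 54 a lower one. The groups did not overlap for 74 genes in the higher direction and for 11 in the lower, against 19.5% and 19.1% of all genes tested. OE replicates 1 and 2 stood at medians of 0.143 and 0.124 and WT replicates at 0.0305 and -0.0305. By these medians both OE libraries were above both WT libraries. The WT values mirror each other around their own mean and do not measure the spread of the replicates. In these runs 1 of the 183 genes was called higher at 12 h, against 0.205% of all genes tested. The per-time medians of its 4 runs were 0.0695 to 0.161 at 12 h, 0.211 to 0.275 at 6 h, 0.162 to 0.233 at 24 h, 0.216 to 0.286 at 48 h and 0.206 to 0.295 at 96 h.

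The other 3 runs did not behave alike at 12 h. On chromosome 10, from 10045295 to 10218426, 13 genes had a median of -0.117 at the other times and -0.512 at 12 h, with 8 genes whose groups did not overlap, OE being lower (19.1% of all genes tested), and 0 called lower (0.193%). The runs on chromosomes 2 and 3, which were higher in OE at the other times (medians 0.174 and 0.182 over 12 and 13 genes), had medians of -0.0332 and -0.114 at 12 h. Outside all runs 53 genes were called higher and 41 lower, 0.36% of 26143 genes. By chromosome the share called ranged from 0.114% on chromosome 17 (1 of 880) to 0.686% on chromosome 1 (21 of 3062). Of the lower genes, 6 had another lower call within 5 kb, and of the higher genes 0 had another higher call there. Over all genes tested 57 (0.216%) had a call in their own direction within that distance.

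Differences between libraries moved with gene length, between the OE replicates as well as between the genotypes. From the shortest of 4 equal classes of the genes tested (185 to 1302 bases) to the longest (2538 to 16904 bases), the median difference went from -0.0538 over -0.0302 and -0.00519 to 0.0368. The trend was larger in OE replicate 2. Against WT replicates 1 and 2 its medians were -0.0979 and -0.0844 in the shortest class and 0.0742 and 0.0598 in the longest, whereas those of OE replicate 1 were -0.0246 and 0.0137 and then 0.0124 and 0.00378. The median of OE replicate 1 minus OE replicate 2 was 0.0932 in the shortest class and -0.0564 in the longest, a wider span than between the group means. Called higher genes had a median length of 2149 bases and called lower genes 1741, against 1836 over all genes tested. In the shortest class 4 genes were called higher and 10 lower, and in the longest 16 and 6. With a per-library offset for length, chosen after this trend was seen, 103 genes were called (53 higher and 50 lower), of which 88 were among the 105. The offset was fitted to the length trend of these same libraries, so it flattens that trend by construction. The counts were then 14 higher and 5 lower in the shortest class, the opposite lean, and 9 and 9 in the longest. With the offset 4 genes, not 3, departed from the other times, and 48 of 53 higher and 46 of 50 lower genes had the same sign at 24 h.

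**Figure D4:**
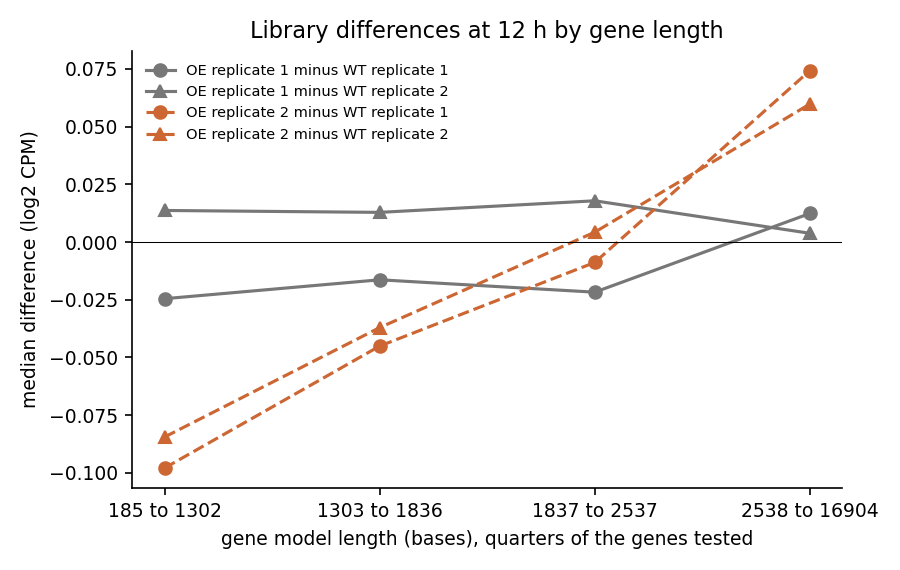
Median log2 CPM difference between single OE and WT libraries of 12 h (vertical axis) in 4 equal classes of the genes tested by model length in bases (horizontal axis). The dashed lines of OE replicate 2 climb from -0.0979 and -0.0844 to 0.0742 and 0.0598, and the solid lines of OE replicate 1 stay between -0.0246 and 0.0179.

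Among the most abundant transcripts OE tended to the lower side. Of the 533 genes at 8 log2 CPM or more, the groups did not overlap for 10.9% in the higher direction and for 22.7% in the lower, against 19.5% and 19.1% over all genes tested, with a median difference of -0.105. Of these genes 1 was called higher and 2 lower. The 100 most abundant genes took 12.6 and 13.2% of the counts in WT and 12.4 and 12.6% in OE. These shares overlapped between the genotypes.

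The question of whether the 12 h difference belongs to that time was asked with the libraries of the other times. The 54 genes called higher at 12 h had a median difference of 0.297 at 24 h and 0.297 at 96 h, but of -0.138 at 6 h and -0.129 at 48 h. At 24 h 47 of them had a higher mean in OE, at 96 h 44, at 6 h 20 and at 48 h 19. Over all genes tested the share with a higher value was 52.8, 50.2, 52.2 and 49.2% in that order. By the test, 9 of the 54 were called higher at 24 h, where 0.307% of all genes were, 4 at 96 h (1.11%), 2 at 6 h (0.409%) and 0 at 48 h (0.0114%). At 6 h 3 of them were called lower, and at 96 h 1.

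The 51 genes called lower at 12 h had a median difference of -0.842 at 24 h, and 48 of them were lower in OE there. Their medians were 0.058 at 6 h, -0.0276 at 48 h and -0.143 at 96 h. The medians of 6 and 48 h, on either side of 12 and 24 h, were thus near 0. Single genes were spread to both sides. The quartiles of these 51 genes were -0.379 and 0.385 at 6 h and -0.497 and 0.183 at 48 h. Called lower were 21 of them at 24 h (0.432% of all genes), 12 at 96 h (0.417%), 8 at 6 h (0.678%) and 8 at 48 h (0.0341%), and 3 were called higher at 6 h and 1 at 96 h. The sign was the same at all other times for 15 of the 51, and for 6 of the 54 higher genes. Those 15 included all 10 lower calls of the chromosome 1 segment, which was itself defined from these other times. The agreement of the lower genes with 24 h was present in every list formed without 1 library of 12 h, with 9 of 9, 125 of 152, 16 of 18 and 12 of 12 genes. That of the higher genes was 4 of 4, 17 of 19 and 12 of 19, but 127 of 246 without WT replicate 2.

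**Figure D5:**
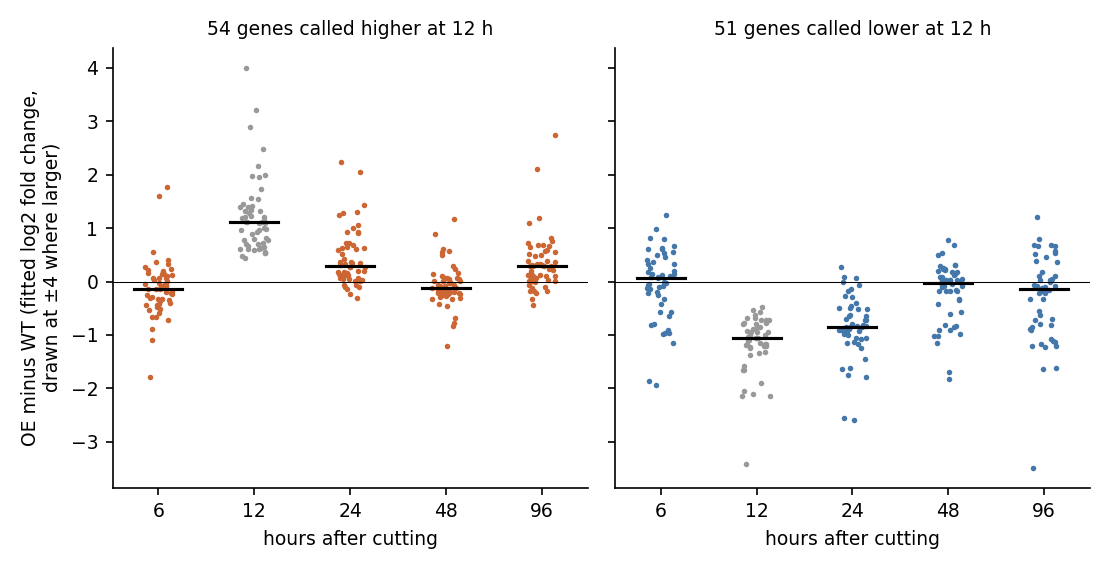
OE minus WT as fitted log2 fold change (vertical axis, drawn at 4 where larger) by hours after cutting (horizontal axis), with 1 point for each of the 54 genes called higher and the 51 called lower at 12 h, and black lines for medians. The grey points of 12 h were used for the choice, and the medians of the higher genes are 0.297 at 24 h and -0.129 at 48 h, those of the lower genes -0.842 and -0.0276.

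Whether the difference at 12 h departed from the mean difference at the other 4 times was tested for every gene in the same fit. The edgeR test called 3 genes (0.0114% of those tested), each with a more negative difference at 12 h, while 3075 genes had an unadjusted p under 0.05. DESeq2 called 355. The 3 genes were Potri.T107600.v3.0, Potri.004G114300.v3.0 and Potri.004G189000.v3.0, of which the last was named after its values were seen.

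Potri.T107600.v3.0 (scaffold_162, 49763 to 50573) had 13.2 and 11.9 CPM in WT and 7.68 and 7.48 CPM in OE at 12 h, but 14.1 and 16.2 in WT and 26.6 and 25.8 in OE at 6 h. The OE libraries thus went from the upper to the lower side between these times. Its difference at 12 h was 1.13 lower on the log2 scale than the mean of the other times (log2 difference -1.13, SE 0.152, adjusted p 0.0355 by edgeR). It was called higher at 6 h (log2 fold change 0.79) and lower at 12 h (-0.72).

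Potri.004G114300.v3.0 (chromosome 4, 10353064 to 10361362) stood at 121 and 113 CPM in WT and at 86.4 and 80.6 CPM in OE at 12 h. At 6 h it was at 40.5 and 45.8 CPM in WT and 95 and 75.2 in OE, and at 48 h at 53.7 and 54.6 in WT and 116 and 103 in OE. The order of the genotypes at 12 h was the opposite of that at 6 and 48 h, where the gene was called higher in OE (log2 fold changes 0.98 and 1.01). At 12 h itself it was not called (log2 fold change -0.48, adjusted p 0.079 by edgeR), and the difference from the other times was -0.92 (SE 0.13, adjusted p 0.0357 by edgeR).

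Potri.004G189000.v3.0 (chromosome 4, 20392803 to 20397818) had 34.7 and 28.9 CPM in WT and 20.3 and 18.3 CPM in OE at 12 h. Its difference there was 1.02 below the mean of the other times (log2 difference -1.02, SE 0.149, adjusted p 0.0357 by edgeR). At 24 h the libraries of both genotypes lay close together, at 30.8 and 29.5 CPM in WT and 32 and 32.3 in OE, and at 96 h the gene was called higher in OE (log2 fold change 0.69). Leaving out WT replicate 1 of 12 h ended the calls of Potri.T107600.v3.0, Potri.004G114300.v3.0 and Potri.004G189000.v3.0 (adjusted p 0.259, 0.264 and 0.353 by edgeR). Leaving out OE replicate 1 (0.104 each) or OE replicate 2 of 12 h (0.0742 each) did so too, as did some libraries of other times.

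In the positive direction the smallest p belonged to Potri.004G134800.v3.0 and Potri.002G033000.v3.0, neither of which passed the adjustment for this test (adjusted p 0.0532 each by edgeR). At 12 h both were called higher in OE. Potri.004G134800.v3.0 (chromosome 4, 15508076 to 15509819) was at 6.71 and 5.64 CPM in WT and at 13.8 and 14.2 CPM in OE, a log2 fold change of 1.18 (SE 0.158, adjusted p 0.00401 by edgeR). At 6 h WT had 12.9 and 10.8 CPM and OE 10.5 and 9.14. Potri.002G033000.v3.0 (chromosome 2, 2125679 to 2129441) was at 11.8 and 12.3 CPM in WT and at 21.9 and 25.7 CPM in OE, a log2 fold change of 0.97 (SE 0.128, adjusted p 0.00401 by edgeR). At 6 h WT had 24.7 and 22.3 CPM and at 24 h 19.3 and 19.9. For both genes the WT libraries of 12 h were below those of 6 and 24 h, and the OE libraries of 12 h were above those of OE at 6 h. For Potri.002G033000.v3.0 the gap in OE was narrow, with OE at 21.7 and 19.1 CPM at 6 h.

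A further question was whether the genotypes stood at different points of the time course at 12 h. A line was drawn through the expression values from the mean of WT at 6 h (position 0) to the mean of WT at 24 h (position 1), and the 12 h libraries, which do not enter it, were placed on it. WT replicates 1 and 2 lay at 0.589 and 0.71 and OE replicates 1 and 2 at 0.601 and 0.689. The OE libraries fell between the WT libraries. The means were 0.649 ± 0.0856 (SD, n = 2) in WT and 0.645 ± 0.0622 in OE, a difference of -0.00425 (exact two-sided permutation test, p = 1, where 2 against 2 libraries cannot go below 0.333). On the line from OE at 6 h to OE at 24 h WT lay at 0.553 and 0.69, while OE lay at 0.652 and 0.76, again with overlap (difference 0.0841, exact permutation p = 0.667). The replicates of a genotype were 0.121 (WT) and 0.0879 (OE) apart on the first line, more than the genotype means.

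Across all 26391 genes the log2 difference between OE and WT at 12 h had a Pearson's r of -0.0107 with the change from 6 to 24 h in WT and of 0.193 with that change in OE. With the change from 24 to 48 h the r was 0.293 in WT and 0.0174 in OE. The difference between the WT replicates of 12 h had an r of -0.277 with the change from 6 to 24 h in WT, and that between the OE replicates an r of -0.186. Between single OE and WT libraries of 12 h, the r with the change from 6 to 24 h in OE ran from -0.0753 (OE replicate 1 against WT replicate 2) to 0.323, and that with the change from 24 to 48 h in WT from 0.0898 to 0.328. These are descriptions across genes of the same libraries, which are not independent replicates.

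The called genes were also placed in the early time course of WT. Of the 54 genes called higher, 28 (51.9%) rose in WT between 6 and 24 h by the same test and 8 (14.8%) fell, and of the 51 called lower, 30 (58.8%) and 9 (17.6%). Over all genes tested these shares were 24.1 and 25.3%. In both lists genes that rose in WT outnumbered those that fell, in libraries that are not those of 12 h, but for the lower genes this depended on single libraries. Without OE replicate 1 of 12 h 8 lower genes rose and 8 fell, and without WT replicate 2 53 rose and 47 fell. As shares of the 6361 genes rising in WT, the overlaps were 0.44 and 0.472%. In the lists formed without 1 library of 12 h, the share rising in WT ranged from 42.1 to 74.8% for the higher genes and from 34.9 to 44.4% for the lower ones. In these bulk samples a lower count can come from fewer cells of a type or from less RNA per cell, which cannot be told apart.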

How the data were processed

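RNA sequencing of 20 libraries gave 1 deposited table each. Each table lists, per the file headers, a count, an FPKM value (per length and depth) and a normalized value per gene model. The submitters' processing notes list TopHat2 2.1.1 and HTSeq 0.6.0, without role or order. Not given in the sources used here are the genome build, the annotation and the strand setting. Coordinates follow the deposited files. The tests used the deposited counts, which are whole numbers with differing totals. The authors' FPKM values were used as levels per length, and the authors' normalized signal column was not used.

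R 4.3.3 with edgeR 4.0.16 fitted 1 model of 10 groups over 20 libraries (TMM scaling, filterByExpr, glmQLFit and glmQLFTest, 10 residual degrees of freedom), and DESeq2 1.42.0 served as an alternative. The model was tested on counts simulated from its own fitted spread. These held no library set apart from its replicate and no trend with gene length. That test therefore does not bear on how the calls depend on single libraries. SEs are the log2 fold change divided by the square root of F. Log2 CPM used a prior count of 2. Library totals ranged from 10399262 to 27472303, of which at least 99.9% fell on tested genes.

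The members, lists and rules were chosen with earlier results of these data known. Named genes had the smallest p in each direction (2 each) among called genes with a mean of at least 1 log2 CPM and non-overlapping groups, and, for the test against the other times, the smallest p at that level. Gene lists by product and markers of cell types could not be formed, because no table used here pairs IDs with names. Replicates are given as biological by the series text, but not as separate plants or lines. Alternatives were median-of-ratios scaling, DESeq2, no filter, thinned counts, 12 h alone, each library left out, and, added after the data were seen, a gene length offset and the called lists without single libraries.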

Additional observations from a re-analysis of the deposited data

Results flagged for a closer look

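In 3 genes the difference between OE and WT at 12 h departed from the mean difference at the other 4 times in the edgeR quasi-likelihood test (Benjamini-Hochberg adjusted). The departures on the log2 scale were -1.13 for Potri.T107600.v3.0 (adjusted p 0.0355), -0.92 for Potri.004G114300.v3.0 (0.0357) and -1.02 for Potri.004G189000.v3.0 (0.0357). Over the alternatives their adjusted p went up to 0.259, 0.264 and 0.353. In each gene both OE libraries of 12 h lay below both WT libraries. No group held enough libraries for a test of a single library that stands apart.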

How the results depend on the processing

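No paired analysis was possible because the labels carry no replicate numbers. The 105 calls at 12 h (54 higher, 51 lower) became 389 (245 and 144) with DESeq2, 390 (248 and 142) without the filter on low counts, 1 (0 and 1) with the 4 libraries of 12 h alone, with 2270 genes under 0.05 before adjustment, and 70 (37 and 33) with counts thinned to the smallest total. Without 1 library the calls ranged from 13 to 398, the higher ones from 4 to 246 and the lower ones from 9 to 152. The 3 genes whose difference at 12 h departed from the other times became 9 with median-of-ratios scaling, 355 with DESeq2 and 278 without the filter, and 0 to 435 without 1 library. They were 0 without WT replicate 1 of 6 or 12 h, either OE library of 12 h, WT 24 h replicate 2, OE 24 h replicate 1 or WT 96 h replicate 2, with 1527 to 3140 genes under 0.05 before adjustment by edgeR. Leaving out OE replicate 2 of 6 h gave 58, and leaving out WT replicate 2 of 12 h gave 435. The cause was not tested. The difference in position on the WT time line, -0.00425, was 0.0841 on the OE line, and -0.0648 to 0.0563 without 1 library. The 8 runs of neighbours became 38 with windows of 8 genes and 5 with windows of 20. The chromosome 1 median was -0.981 to -0.861 without 1 library of 12 h. No named gene changed direction in any alternative run. Replicates differed most among genes under 0 log2 CPM, and the part of depth in this was not tested.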
